A study of Saccharomyces cerevisiae with 6 samples.

Results

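Very long genes were taken as the genes of at least 3500 bp in the WT list of H3K4me3 peaks that carry a systematic ORF name, and their peaks were followed in the lists of WT and *jhd2∆* cells. There were 262 such genes among the 4622 systematic names in the WT list, and 261 of them had a peak in both lists. The rule used gene length and the presence of a peak in the WT list, and no breadth, height or difference between the lists. Their lengths ran from 3509 to 14732 bp, with a median of 4508 bp. One further name of this length, RDN37-2, is a ribosomal DNA unit and not a systematic ORF, and was left out. A gene with a peak in the *jhd2∆* list alone could not be a member, since gene lengths are given in the WT list (342 names of the *jhd2∆* list are of this kind).

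The study compared WT budding yeast (strain MSY723) with a strain lacking *JHD2* (MSY724), both labelled BY4742, asking where the loss of this enzyme changes H3K4me3. Cells were grown in YAR, a medium with raffinose and ammonium sulfate, to an O.D.600 of 0.5, and were crosslinked with formaldehyde. Each genotype gave 1 H3K4me3 library, 1 pan-H3 library and 1 whole cell lysate library, of which the H3K4me3 peak lists were analysed. With 1 library per genotype, a difference between the lists has no replicate check, no test between the genotypes was possible, and every difference reported compares these libraries. Genes are not replicates of a genotype, so medians and quartiles over genes describe the spread among genes.

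H3K4me3 is deposited by Set1, the catalytic subunit of COMPASS, which travels with RNA polymerase II in early elongation, and it marks the nucleosomes at the 5′ ends of transcribed genes. Jhd2 is a JmjC-domain demethylase that removes it. Because the mark is tied to the start of transcription, a long gene normally carries it over a small part of its length. Very long yeast ORFs encode giant proteins such as dynein, checkpoint kinases, ribosome assembly factors and transporters, but they also include repeated ORFs, such as those of Ty retrotransposons and of the subtelomeric Y′ elements, whose near-identical copies short reads cannot tell apart.

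In WT the median peak of a very long gene was 734.5 bp broad (quartiles 628 and 887 bp). The median ratio of breadth to gene length was 17.0%. The 4360 shorter genes had a median breadth of 652 bp (530 to 775 bp) and a median ratio of 58.6%. In *jhd2∆* the very long genes had a median breadth of 752 bp (646 to 910 bp) and a median ratio of 17.5%. This ratio is not the part of the gene covered, since gene coordinates were not used. Its WT median was 107.8% for genes below 800 bp. Thus the peaks were somewhat broader than those of shorter genes. Their far lower ratio follows largely from the selection by length, since breadth is divided by gene length. The median length was 4508 bp for very long genes and 1175 bp for shorter genes, so the lower ratio is not a separate finding. Peak height, given as the pileup (the read coverage at the summit as deposited), was similar between the length classes within each list, with medians of 303 and 301 for very long and shorter genes in WT and 275 and 273 in *jhd2∆*. The scaling between the lists is not given in the sources used here, so pileup was compared only within a list.

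From WT to *jhd2∆* the breadth of the very long genes differed by a median of 23 bp (quartiles -11 and 64 bp, range -148 to 463 bp). The peak was wider in *jhd2∆* at 177 of the 261 genes (67.8%), against 63.3% of all 4521 systematic genes with a peak in both lists. It was narrower at 82 genes, where the share of all genes was 35.9%, and equal at 2. A gain of more than 100 bp was seen at 41 very long genes (15.7%), against 14.2% of all genes, and a loss of more than 100 bp at 3, against 1.26%. Of the 261 genes, 217 (83.1%) stayed within 100 bp of their WT breadth, close to the 84.5% of all genes. Gains above 50 bp were seen at 83 of the 261 genes, against 29.1% of all genes, and losses above 50 bp at 17, against 5.82%. Gains above 200 bp were seen at 6 genes, against 3.63% of all genes, and losses above 200 bp at 0, against 0.420%. The same comparison for the 4260 shorter genes gave a median of 17 bp. Breadth in these lists is not a measure of H3K4me3 level. The paper states that normalization makes total signal equal between the genotypes, and proposes that this hid a gain across the genome. Its ChIP-qPCR found more H3K4me3 in *jhd2∆* at *MRPL17*, *PMA1* and *YEF3*, genes without a change in breadth. An unchanged or narrower peak is therefore no evidence of unchanged or lost H3K4me3.

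**Figure D1:**
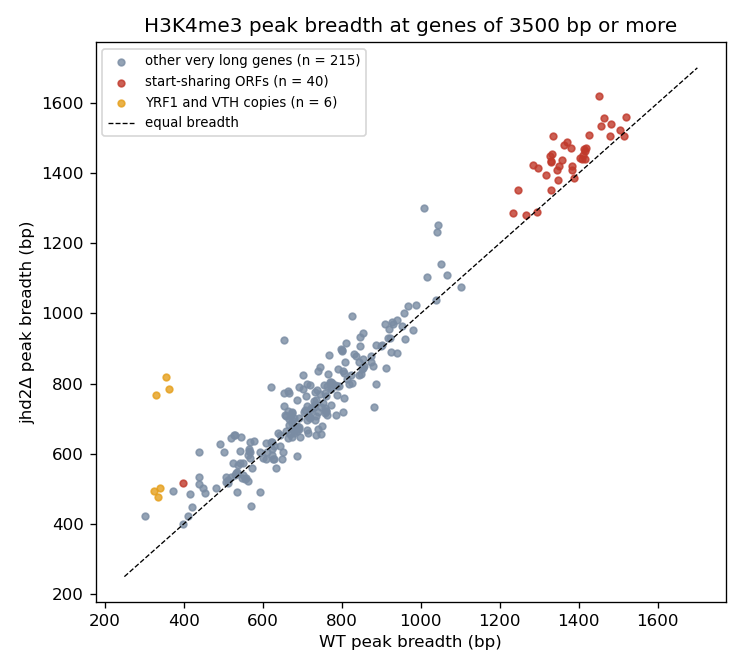
Breadth of the H3K4me3 peak in WT (x axis, bp) and in *jhd2∆* (y axis, bp) at the 261 very long genes with a peak in both lists, 1 point per gene, with the line of equal breadth. The start-sharing ORFs form a separate cloud above 1200 bp, the *YRF1* and *VTH* copies lie above the line at the narrow end, and the other long genes lie along the line.

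The 2 edges of the peak behaved differently. The downstream edge, on the 3′ side by strand, was further into the gene in *jhd2∆* at 204 of 261 very long genes (78.2%, against 77.4% of all genes). Its median shift was 28 bp. Into the gene means toward the 3′ end throughout. Gene coordinates were not used, and at short genes this edge may lie past the gene. The upstream edge moved outward at 65 genes (24.9%, against 17.9% of all genes), and its median shift was -10 bp, that is, inward. Shorter genes had medians of 29 bp downstream and -14 bp upstream.

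The very long genes were not of one kind. At 40 of them the RefSeq annotation places a shorter ORF on the same strand that begins at the same base, and these are called start-sharing ORFs here. The gene table used here lists no symbol for any of the 40, and 31 carry a hyphenated systematic name. They lie on 13 chromosomes and fall into a few exact lengths, with 24 of 5268 bp and 10 of 5313 bp. Their sequences were not compared here. The WT peak was also listed for the shorter ORF at 38 of the 40, and the *jhd2∆* peak at 36. In all, 43 of the 262 members (16.4%) had a WT peak listed for a further gene, against 7.59% of all systematic genes. Where such ORFs are near-identical copies, a read cannot be assigned to one of them with certainty, so their peaks are not independent measurements.

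The start-sharing ORFs had the broadest peaks of all very long genes. Their median breadth was 1376 bp in WT (398 to 1520 bp) and 1442 bp in *jhd2∆*. In WT 39 of the 40 exceeded 1200 bp, a breadth that none of the 216 other long genes reached, the 4 *YRF1* and 2 *VTH* genes being set aside. Only 85 of the 4452 distinct WT peaks were this broad, and 39 of these 85 belonged to start-sharing ORFs. The broadest of all was YOR343W-B, at 1520 bp in WT against 1561 bp in *jhd2∆*. YLR410W-B measured 1515 and 1506 bp, and YFL002W-A 1505 and 1522 bp. YDR261W-B measured 1481 bp in WT against 1541 bp in *jhd2∆*, and YDR034C-D 1478 and 1506 bp. The exception was YHL009W-B, an ORF of 5409 bp whose peak was 398 bp broad in WT and 516 bp in *jhd2∆*.

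These ORFs were also wider in *jhd2∆*, by a median of 62 bp (quartiles 33 and 105.75 bp, range -9 to 170 bp). The peak was wider at 37 of the 40, against 63.3% of all genes, and at 12 by more than 100 bp, against 14.2%. The 3 narrower peaks lost at most 9 bp. The largest gain, 170 bp, was shared by YHR214C-B (1451 to 1621 bp) and YMR050C (1335 to 1505 bp). Here both edges lay further out: the upstream edge by a median of 19.5 bp, outward at 32 of 40 against 17.9% of all genes, and the downstream edge by 37 bp, further at 35 of 40 against 77.4%. 

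The 2 common lengths differed in peak height. The 24 ORFs of 5268 bp had a median WT pileup of 311.5, at the 66.2nd percentile of all systematic genes, and a *jhd2∆* pileup of 306, at the 92.1st percentile of that list. The 10 ORFs of 5313 bp had a median of 263.5 in WT (13.6th percentile) and 252 in *jhd2∆* (19.8th percentile). In WT the pileups did not overlap between these lengths, with 293 to 330 for the former and 238 to 275 for the latter. The lower peaks were the broader ones, at a median of 1470.5 bp in WT against 1516 bp in *jhd2∆*, against 1355.5 and 1436.5 bp at the 5268-bp ORFs. How reads from similar ORFs were placed was not tested.

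The *YRF1* genes, which encode the helicase of the subtelomeric Y′ elements, showed the reverse picture in WT, with narrow and low peaks. *YRF1-3* had a WT peak of 356 bp (chromosome VII, 1084810 to 1085165) and a *jhd2∆* peak of 819 bp (1084769 to 1085587), a gain of 463 bp. *YRF1-6*, on chromosome XIV, went from 331 to 769 bp, and *YRF1-7*, on chromosome XVI, from 364 to 786 bp. These were the 3 largest gains among the very long genes, and nearly all of each gain was downstream (422, 398 and 409 bp). *YRF1-4*, on chromosome XII, went from 335 to 478 bp, with 95 of the 143 bp gained upstream. The deposited lists name no genome build for these positions. Their WT pileups, 191 to 196, had a median at the 0.844th percentile of the list, and their *jhd2∆* pileups, 213 to 229, at the 3.84th percentile. The *VTH1* and *VTH2* genes, 2 near-identical relatives of the vacuolar sorting receptor gene *VPS10*, had equally narrow WT peaks. *VTH1* went from 326 to 494 bp and *VTH2* from 341 to 503 bp. All 6 of these genes have near-identical copies, so which copy gained breadth is uncertain.

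The 40 start-sharing ORFs and the 6 *YRF1* and *VTH* genes were then set aside. The 216 other long genes still had broader WT peaks than shorter genes, while their differences between the lists were near those of all genes. Their median breadth was 712.5 bp in WT (622.5 to 803 bp) and 720 bp in *jhd2∆* (624.5 to 827.5 bp). The median difference was 13 bp (quartiles -18 and 49.5 bp) over the 215 genes with both peaks, and 134 were wider (62.3%, against 63.3% of all genes), 79 narrower and 2 equal. A gain above 100 bp was seen at 23 (10.7%, against 14.2%) and a loss above 100 bp at 3 (1.40%, against 1.26%). Hence 18 of the 41 large gains among very long genes lay at start-sharing ORFs, *YRF1* or *VTH* genes. The median difference of the 378 genes from 2500 bp to just under 3500 bp was 17 bp. Among shorter genes the median WT breadth was 561 bp below 800 bp and 685 bp from 800 to under 1500 bp. It was 676 bp both from 1500 to under 2500 bp and from 2500 to under 3500 bp. The excess in breadth was thus small against all but the shortest genes.

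At these other long genes the edges moved as at shorter ones. The downstream edge was displaced into the gene by 24 bp at the median (75.8% further, against 77.4% of all genes). The upstream edge lay inward by 13 bp, and was outward at 28 of 215 (13.0%, against 17.9%), whereas the share over all 261 very long genes, 24.9%, was above that of all genes. On each of the 16 chromosomes, with 6 to 25 of these genes each, the median upstream shift was inward (-30 to -3 bp) and the median downstream shift was into the gene (2 to 62 bp). The median difference in breadth was above 0 on 12 chromosomes, below 0 on 3 and 0 on 1 (range -12 to 34 bp). All 23 genes that gained over 100 bp did so mainly downstream, by 82 to 324 bp (median 131 bp), while their upstream edge moved by -43 to 40 bp. Of the 79 narrower genes, 46 had both edges inward, 32 the upstream edge alone and 1 the downstream edge alone. The edges of the large gains and of the narrower peaks were not counted in this way over all genes. These counts are therefore not shown to be particular to long genes.

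**Figure D2:**
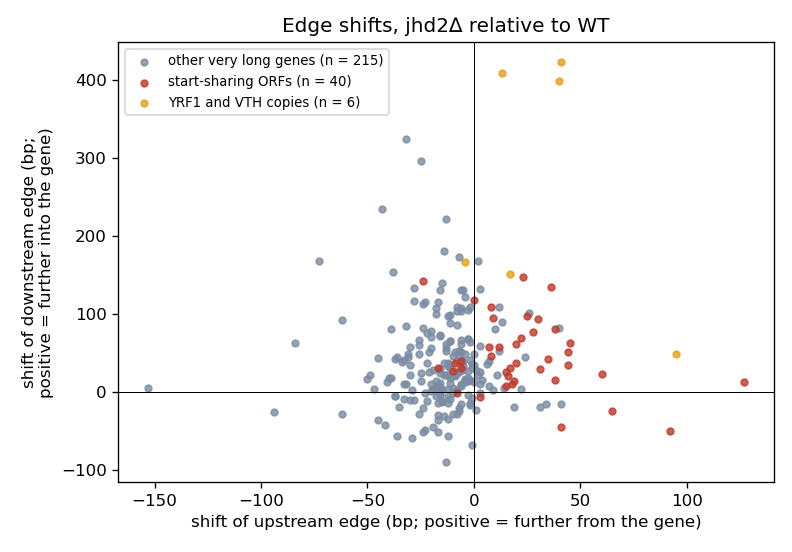
Shift of the upstream edge (x axis, bp, positive outward) and of the downstream edge (y axis, bp, positive into the gene) of each peak from WT to *jhd2∆* at the 261 very long genes, 1 point per gene. Most other long genes lie left of 0 on the x axis and above 0 on the y axis, most start-sharing ORFs lie to the right of 0, and the *YRF1* copies with the largest gains lie at the top.

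Among the other long genes, breadth had little relation to length. Over the 215 other long genes, Pearson's r between gene length and WT breadth was -0.057 and Spearman's coefficient -0.0155. Over 4260 shorter genes these were 0.185 and 0.255. These relations run across genes of 1 library, with no test. Their median WT breadth was 705 bp for genes from 3500 to under 4000 bp, 729.5 bp from 4000 to under 5000 bp, 675 bp from 5000 to under 7000 bp and 674.5 bp from 7000 bp up. The median difference to *jhd2∆* in these classes was 16.5, 12.5, 18 and -8.5 bp. In the longest class, 5 of 16 genes were wider in *jhd2∆* (31.2%, against 63.3% of all genes). With the start-sharing and *YRF1* ORFs included, the class from 5000 to under 7000 bp had a median of 922 bp in WT. The upstream edge of these 16 genes lay 16.5 bp inward, as elsewhere, and the downstream edge only 7 bp further into the gene. Just inside the limit, 21 members within 100 bp of it had a median WT breadth of 673 bp, and 22 genes within 100 bp below it had 706.5 bp. Their median differences were 16 and 17.5 bp.

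**Figure D3:**
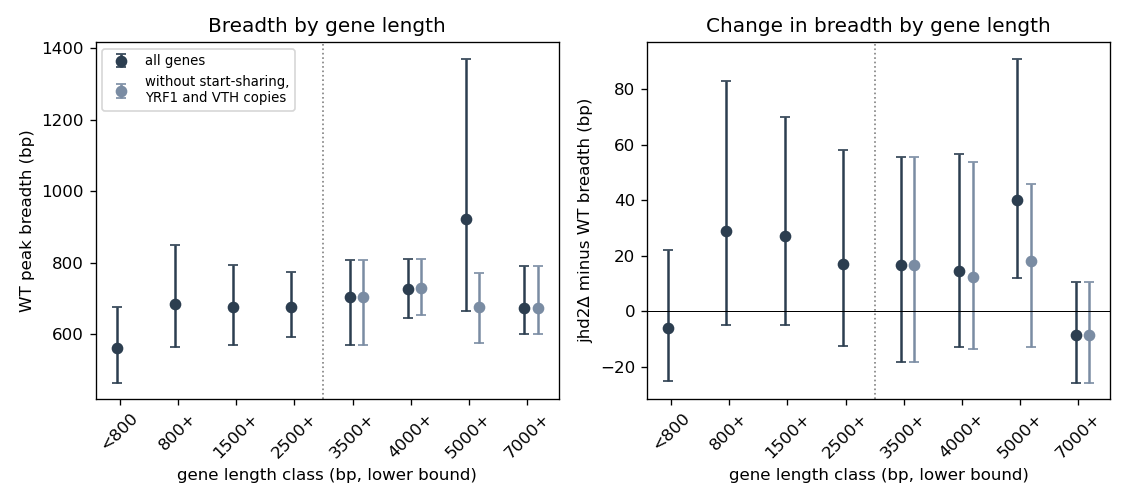
WT peak breadth (left, bp) and difference in breadth from WT to *jhd2∆* (right, bp) by class of gene length, as medians (points) and quartiles over genes (bars), for all genes and without the start-sharing, *YRF1* and *VTH* genes, the dotted line marking 3500 bp. WT breadth is lowest below 800 bp (561 bp), the class from 5000 bp drops from 922 to 675 bp without those genes, and the median difference is below 0 in the shortest and the longest class.

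The 10 longest genes all belong to that class of 16, and 6 of them were narrower in *jhd2∆*, against 35.9% of all genes. *REA1* (also *MDN1*), whose product is a giant AAA ATPase that remodels pre-60S ribosomes, was the longest at 14732 bp. Its peak measured 502 bp in WT against 604 bp in *jhd2∆*, with 105 bp gained downstream. *DYN1*, the dynein heavy chain, went from 657 to 712 bp. *UTP20*, a component of the small-subunit processome, went from 524 to 574 bp. *TRA1*, the activator-binding subunit of SAGA and NuA4, stayed within 4 bp (788 and 792 bp).

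The 6 others lost between 5 and 47 bp. *TEL1*, a checkpoint kinase that maintains telomere length, went from 806 to 759 bp, and *TOM1*, a ubiquitin ligase, from 626 to 584 bp. *VPS13*, a lipid transfer protein, measured 610 and 605 bp. *NUM1*, the cortical anchor of dynein, measured 720 and 701 bp. *GCN1*, the activator of the Gcn2 kinase, measured 848 and 828 bp, and *FMP27* 735 and 707 bp. At *TEL1*, *TOM1*, *GCN1* and *FMP27* both edges lay inward in *jhd2∆*, so for these genes the loss was not confined to the upstream side.

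**Figure D4:**
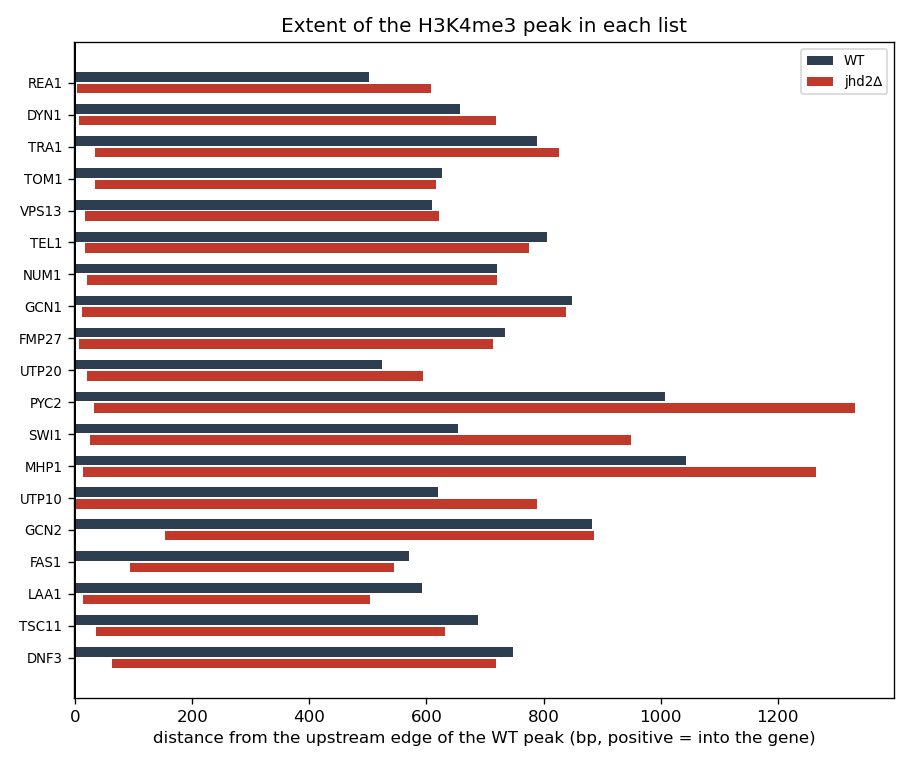
Extent of the peak in WT and in *jhd2∆* at named very long genes, drawn to scale as bp from the upstream edge of the WT peak, positive into the gene. The bars of *PYC2* and *SWI1* reach much further right in *jhd2∆*, and the bar of *GCN2* starts further right.

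Apart from the *YRF1* genes, the largest gains were at *PYC2* and *SWI1*. *PYC2*, a pyruvate carboxylase that supplies oxaloacetate, went from 1008 bp in WT to 1300 bp in *jhd2∆*, with 324 bp gained downstream and 32 bp lost upstream. *SWI1*, a subunit of the SWI/SNF remodeler, went from 654 to 925 bp, with 296 bp gained downstream. Next came *MHP1*, which encodes a microtubule-associated protein, from 1044 to 1253 bp. In all 3 the upstream edge was inward and the downstream edge carried the gain.

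The largest losses differed in which edge carried them. *GCN2*, the eIF2α kinase that senses amino acid starvation, went from 882 to 734 bp, with 153 bp lost upstream and 5 bp gained downstream. *FAS1*, the beta subunit of fatty acid synthase, went from 570 to 450 bp, mostly upstream (94 bp). *LAA1*, which works with the clathrin adaptor AP-1, went from 593 to 490 bp, mostly downstream (90 bp). *TSC11*, a TORC2 subunit, went from 688 to 595 bp and *DNF3*, a phospholipid flippase, from 748 to 657 bp.

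Among the other long genes, WT breadth ranged from 303 to 1102 bp. The 3 broadest were *URA2*, which encodes the first enzyme of pyrimidine synthesis (1102 bp in WT, 1074 bp in *jhd2∆*), *ARO1*, the pentafunctional enzyme of aromatic amino acid synthesis (1067 and 1110 bp), and *ATH1*, acid trehalase (1052 and 1142 bp), closely followed by *MHP1* at 1044 bp in WT. The narrowest was *BNR1*, a formin, at 303 bp in WT against 424 bp in *jhd2∆*. Peak height was highest at *SEC7*, an Arf exchange factor of the Golgi (WT pileup 348), and at *CAT8*, an activator of gluconeogenic genes (346, with a breadth of 831 and 885 bp). *NUP188* of the nuclear pore (342), *CLU1* (340) and *CHC1*, the clathrin heavy chain (340), followed. The lowest WT pileup, 184, was at YEL077C, whose peak lay at 3747 to 4144 on chromosome V and was 398 bp broad in WT and 400 bp in *jhd2∆*. This ORF has no symbol in the gene table and was kept among the other long genes, although its pileup was as low as those of the *YRF1* genes.

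Low peaks gained more than high ones, at long and shorter genes alike. When genes were placed in 5 classes of WT pileup, cut at quintiles over all systematic genes, the other long genes differed by medians of 30, 25, 8, 10 and 8 bp from the lowest to the highest class (33 to 52 genes each). The shorter genes differed by 44, 25, 16, 9 and -3 bp. WT breadth of the other long genes was larger in every class, at 524, 675, 718, 761 and 786 bp against 512, 616, 657, 696.5 and 763 bp.

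Very long genes were also described by function, without a test between groups. The 14 groups held 132 members, with 2 to 20 in each. A further 38 genes of these groups had no entry in the WT list, 8 of which had a *jhd2∆* peak. For comparison, the median difference over all systematic genes was 17 bp. Of all genes 63.3% were wider, 35.9% were narrower and 14.2% were wider by more than 100 bp.

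The largest group medians were those of RNA polymerase and ribosome assembly genes. All 4 RNA polymerase subunit genes were wider in *jhd2∆*, against 63.3% of all genes, with a median of 74 bp. *RPO31*, the largest subunit of polymerase III, went from 655 to 773 bp and *RPA190*, that of polymerase I, from 798 to 899 bp. *RPO21*, that of polymerase II, went from 566 to 613 bp, and *RPA135*, the other large subunit of polymerase I, from 705 to 718 bp.

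Ribosome biogenesis genes were wider at 6 of 9, a share near the 63.3% of all genes, with a median of 65 bp and 3 above 100 bp (14.2% of all genes passed this limit). *UTP10* of the small-subunit processome went from 620 to 790 bp and *RRP12*, an export factor of pre-ribosomes, from 527 to 653 bp. *RRP5*, which acts in both subunits' assembly, went the other way, from 749 to 680 bp. These genes also had low peaks, with a median WT pileup at the 22.8th percentile, and the part of peak height in their difference was not tested.

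Transporter and cytoskeletal genes had shares not far from the background. Of 13 genes for ABC transporters and P-type ATPases, 9 were wider and 4 narrower (63.3% of all genes were wider). Their median was 57 bp, and 3 were above 100 bp, against 14.2% of all genes. *YCF1*, a vacuolar glutathione-conjugate transporter, went from 826 to 992 bp, *PDR12*, a weak acid exporter, from 372 to 494 bp, and *PDR5*, a multidrug exporter, from 811 to 916 bp. *STE6*, the a-factor exporter, went from 800 to 892 bp. Of 11 cytoskeletal genes, 8 were wider, with a median of 39 bp, and *IQG1*, needed for the cytokinetic ring, went from 701 to 826 bp.

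Signalling genes had medians below 0. Of 8 genes for PI3K-like kinases and TOR complex subunits, 6 were narrower in *jhd2∆*, against 35.9% of all genes. Their median was -16 bp, although most differences were small. *TRA1*, *TEL1*, *TOR1*, *TOR2* and *MEC1* of this group also belong to the length class from 7000 bp up described above. The low medians of this group and of that class therefore rest partly on the same peaks. *TOR1* measured 573 bp in WT against 561 bp in *jhd2∆*, *TOR2* 675 and 671 bp, and *KOG1*, a TORC1 subunit, 691 and 671 bp. *MEC1*, the main DNA damage checkpoint kinase, was wider (543 and 573 bp). Both Ras/cAMP pathway genes were narrower, with *CYR1*, adenylate cyclase, at 760 and 721 bp and *CDC25*, the Ras exchange factor, at 854 and 845 bp.

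Genes for RNA processing and translation had a median of -22.5 bp, with 5 of 8 narrower (35.9% of all genes were narrower), *GCN2* among them. Nuclear pore genes had a median of -7.5 bp, with 5 of 8 narrower, against the same 35.9%. They held opposite changes: *NUP192* went from 734 to 653 bp and *NUP188* from 746 to 848 bp.

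In the remaining groups the medians lay between 8 and 30 bp. Of 14 chromatin genes 9 were wider, with a median of 8 bp: *MOT1*, which removes TBP from DNA, went from 666 to 773 bp, *ECM5*, a JmjC-domain protein, from 801 to 895 bp, and *SPT7*, a SAGA scaffold, from 694 to 649 bp. *SPT6*, a histone chaperone of elongating polymerase, measured 723 and 724 bp. Membrane traffic genes were wider at 12 of 20 (median 10 bp), ubiquitin pathway genes at 5 of 8 (18 bp) and the 3 cell wall genes at each (30 bp). DNA replication and repair genes were wider at 10 of 13 (18 bp) from narrow WT peaks, with a median of 547 bp. Their peaks were also low, with a median WT pileup at the 17.0th percentile. A gain above 100 bp was seen at 0 of the 13, against 14.2% of all genes. *POL1*, the catalytic subunit of polymerase alpha, went from 438 to 515 bp, and *DNA2*, a nuclease and helicase, from 714 to 659 bp.

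Metabolic enzyme genes had the broadest peaks of the 14 groups, with a WT median of 940 bp and a *jhd2∆* median of 970 bp, but no common direction (6 wider, 5 narrower). The 2 pyruvate carboxylase genes moved apart: *PYC2* gained 292 bp while *PYC1* went from 940 to 886 bp. The fatty acid synthase genes did likewise, with *FAS2* at 989 and 1023 bp against the loss at *FAS1*. *GLT1*, glutamate synthase, went from 887 to 799 bp.

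**Figure D5:**
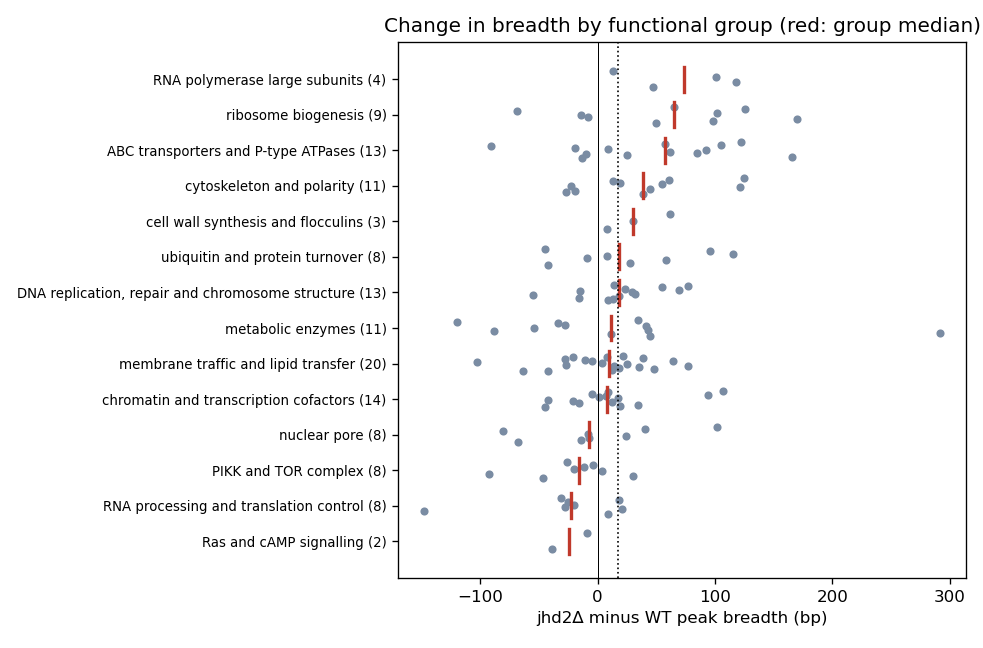
Difference in peak breadth (*jhd2∆* minus WT, bp) at the very long genes of 14 functional groups, 1 point per gene, with the median of each group as a red bar and the median of all systematic genes (17 bp) as a dotted line. RNA polymerase subunits lie wholly above 0 and the Ras/cAMP genes wholly below it, while metabolic genes spread from -120 to 292 bp.

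*OXP1*, which encodes 5-oxoprolinase, was the only very long gene with a peak in the WT list alone. Its WT peak was 698 bp broad (chromosome XI, 30135 to 30832) with a pileup of 301, close to the median of very long genes. No listed *jhd2∆* peak overlapped it. The nearest listed *jhd2∆* peaks on either side, at *URA1* and *DOA1*, carry the peak numbers 3029 and 3031, and the number between them, 3030, is not in the list. A peak that was called but not listed and a peak that was not called cannot be told apart here.

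Each very long gene had a single listed peak in each list. No listed peak lay wholly inside the body of a very long gene, at 262 genes in WT and 261 in *jhd2∆*, when the last 500 bp were set aside. Gene coordinates were not used here: the body was measured off as the gene length from the upstream edge of the gene's own peak. The median distance from the downstream edge to the next listed peak was 5107 bp in WT against 4926.5 bp in *jhd2∆*. The lists hold only peaks attributed to a gene by its 5′ coding region, so a peak within a gene body was unlikely to be listed at all. Gaps in the peak numbering occurred before the next listed peak at 47 of 257 genes in WT and 40 of 256 in *jhd2∆*. A gene body without a called peak and one whose peak was left unlisted cannot be told apart.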

How the data were processed

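H3K4me3 ChIP-Seq used 51 bp single-end reads. According to the methods, reads were aligned with Bowtie2 (2.2.3 in the submitters' processing notes), and MACS2 peaks were attributed to genes by their 5′ coding region. The ChIP-Seq genome build and the MACS2 control are not given in the sources used here. The authors deposited peak positions, breadths in bp and the pileup, a coverage signal. The lists hold no read totals and so no depth, so no counting intervals were computed. The authors' column of breadth divided by gene length, repeated columns and empty columns were not used.

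Peaks were paired by systematic name. Differences are *jhd2∆* minus WT, and strand for the edge shifts came from the W or C that follows the digits of the systematic name. RefSeq R64 gave symbols (all 262 genes matched, 216 with a symbol) and the ORFs that share a start. None of its coordinates are printed. Tools were scipy 1.17.1, pandas 2.3.3 and numpy 2.4.6 under Python 3.11.15, with matplotlib 3.10.9 for plots, and the edge computation was tested on simulated data.

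The members, the gene lists and the tests were chosen with earlier results of these data known. Named genes were the 10 longest, the 5 largest gains and losses, the 5 broadest WT peaks, the 5 highest and lowest WT pileups, genes with a WT peak only, and per functional group the longest gene, the highest pileup and the extremes of the difference. Further genes were chosen after their values were seen, among them *MHP1*, *ATH1*, *BNR1*, the *VTH* genes and the individual group members. Promoter motifs were not analysed here.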

Additional observations from a re-analysis of the deposited data

How the results depend on the processing

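No paired analysis was possible because WT and *jhd2∆* have 1 H3K4me3 library each. Of 101 values under alternatives, 90 stayed within set limits. These were the spread over chromosomes, the 95% Wilson interval for shares (61.9 to 73.2%) or 1.5 times for counts. The 90 include alternatives that could not move the members' values. Keeping only genes with 1 peak, or the peak of highest pileup, changed nothing because no member had more than 1 listed peak per list. The spread over chromosomes was also a loose limit, at 21.9 bp for an excess of the median difference of 6 bp. With a length limit of 5000 bp, median WT breadth was 806 bp, its excess over shorter genes 151 bp (82.5 bp at 3500 bp), the upstream shift -3 bp, and 20 genes gained more than 100 bp. The excess of the median difference over shorter genes, 6 bp, reversed to -1 bp without peaks listed for more than 1 gene, to -1.5 bp without hyphenated names and to -4 bp without the start-sharing, *YRF1* and *VTH* genes, the last chosen after seeing the data. The number gaining more than 100 bp, 41, was 25 without the lowest pileup class and 23 without the start-sharing, *YRF1* and *VTH* genes. At a limit of 50 bp, 83 genes gained and 17 lost, and at 200 bp, 6 gained and 0 lost. Depth limits what the lists show, since a peak below the calling threshold is not listed.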
